A study of Mus musculus with 4 samples.

Results

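The Notch receptors, ligands and targets were described in 4 mammary tumour samples as 10 genes found by their symbols in the count tables: the receptors Notch1, Notch2, Notch3 and Notch4, the ligands Jag1, Jag2 and Dll1, the DNA-binding effector Rbpj, and the target genes Hes1 and Hey1. All 10 symbols were present, each once, among 23282 gene rows, and all 10 passed the filter on low counts. The samples were tumours of female FVB mice aged 14 weeks, and every one carried PyMT, the polyoma virus middle T antigen, an oncogene that drives mammary carcinoma. The samples comprised 2 labelled Nr1d1+/+;PyMT and 2 labelled Nr1d1-/-;PyMT, so that the design sets loss of Nr1d1 against its presence. Nr1d1 encodes the clock repressor REV-ERBα. The labels name neither the promoter that drives PyMT, nor the exons that the Nr1d1 null allele lacks, nor whether the replicates came from separate animals. The p-values below thus reflect the scatter of these 4 samples alone, and that scatter may be technical.

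Notch signalling passes between touching cells. A ligand of the Jagged or Delta family on one cell binds a Notch receptor on its neighbour, the receptor is cut first by an ADAM protease and then by the gamma-secretase complex, and the freed intracellular part enters the nucleus. There it joins RBPJ and a Mastermind protein and turns genes on, among them the HES and HEY repressors. In the mammary gland the pathway is known for steering progenitor cells towards the luminal fate, and in blood vessels NOTCH4 is known from endothelium and NOTCH3 from the mural cells, the pericytes and smooth muscle, that wrap it.

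Total counts ran from 15905404 to 19116279 per library. Transcripts of Nr1d1 itself did not separate the labels: it stood at 20.1 and 10.3 CPM (counts relative to the library total, scaled with TMM factors) in the Nr1d1+/+ tumours and at 10.6 and 12.8 CPM in the Nr1d1-/- tumours, replicate 1 before replicate 2 as throughout (log2 fold -0.37, edgeR adjusted p = 0.436). Directions below therefore rest on the labels. Luminal epithelial markers summed to 5876 to 6795 CPM in Nr1d1+/+ and 9778 to 10627 CPM in Nr1d1-/- libraries, with no listed marker at 0, so that the epithelium the tissue label implies was present in all 4. The higher sum came from keratins: Krt8 was 1268 and 1352 against 2493 and 2456 CPM, and Krt18 2055 and 1653 against 4453 and 3598 CPM. Krt19 was 571 and 423 against 1255 and 1249 CPM. Cdh1 was called lower, at 357 and 305 against 188 and 212 CPM. Epcam overlapped, at 1220 and 907 against 701 and 954 CPM. Nr1d1-/- replicate 1 stood apart in skeletal muscle markers, which summed to 754 CPM there and to 1.87 to 3.78 CPM in the other libraries. Of the markers of other cells, 5 of 5 tested red blood cell genes and 4 of 8 adipocyte genes were called higher and 0 lower, against 16.5% higher and 17.3% lower of all 14801 tested genes. The counts higher and lower were 4 and 1 of 12 for luminal, 3 and 1 of 8 for basal, 3 and 1 of 11 for macrophage, 2 and 0 of 10 for fibroblast and 1 and 1 of 8 for T and NK cell genes, the last 2 lists near that background. The 3 muscle genes tested were also called higher, but on the strength of Nr1d1-/- replicate 1. The part of these cells in the results below was not tested. Each result below for the Notch genes and the other pathway genes is given without this library where that changes its call. Marker calls are given from the fit of all 4 libraries only.

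Promoter sequences of the genes the results turn on are shown first, since a common route of control in this pathway is RBPJ binding near a gene's start. RefSeq windows (GRCm38.p6), from 250 bases before to 50 bases after a start, matched 8 of the 10 genes; Hes1 and Hey1 had no entry. The core of the RBPJ motif, TGGGAA on either strand, stood in 25.6% of all 32851 windows of this length. Among the windows of the 8 genes it was found in those of Rbpj alone: the first of Rbpj's pair of windows, chr5:53590096-53590395 on the plus strand, held 2 copies, which 3.79% of all windows did. One copy began 149 bases before the start on the plus strand and the other 65 bases before it on the minus strand. The second Rbpj window overlaps the first and held 1 of these copies, 205 bases before its own start. The RefSeq starts used for Rbpj and Notch1 lie inside the gene spans given below. Those spans begin further upstream, at 53466152 for Rbpj and at 26516663 for Notch1. The Rbpj window and those of the 3 receptors called different between genotypes, Notch1 (chr2:26503773-26504072, minus strand), Notch3 (chr17:32166841-32167140, minus strand) and Notch4 (chr17:34564045-34564344, plus strand), read as follows in the direction of transcription, with capitals for the RBPJ core.
Rbpj: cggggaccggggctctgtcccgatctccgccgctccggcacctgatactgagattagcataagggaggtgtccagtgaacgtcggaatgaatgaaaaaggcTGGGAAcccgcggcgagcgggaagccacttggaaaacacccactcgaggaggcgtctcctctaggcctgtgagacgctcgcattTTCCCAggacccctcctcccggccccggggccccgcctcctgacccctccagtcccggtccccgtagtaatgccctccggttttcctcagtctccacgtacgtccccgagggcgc
Notch1: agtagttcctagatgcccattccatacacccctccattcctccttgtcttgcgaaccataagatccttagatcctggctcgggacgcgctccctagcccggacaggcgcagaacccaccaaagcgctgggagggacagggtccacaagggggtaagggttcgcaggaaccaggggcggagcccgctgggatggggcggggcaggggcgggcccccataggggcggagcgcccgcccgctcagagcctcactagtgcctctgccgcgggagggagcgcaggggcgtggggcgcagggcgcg
Notch3: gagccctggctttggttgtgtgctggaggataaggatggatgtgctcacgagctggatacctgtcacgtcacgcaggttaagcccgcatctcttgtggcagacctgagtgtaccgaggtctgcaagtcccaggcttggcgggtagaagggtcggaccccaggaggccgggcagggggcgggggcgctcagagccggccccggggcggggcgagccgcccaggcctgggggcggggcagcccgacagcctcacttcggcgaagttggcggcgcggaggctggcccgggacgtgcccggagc
Notch4: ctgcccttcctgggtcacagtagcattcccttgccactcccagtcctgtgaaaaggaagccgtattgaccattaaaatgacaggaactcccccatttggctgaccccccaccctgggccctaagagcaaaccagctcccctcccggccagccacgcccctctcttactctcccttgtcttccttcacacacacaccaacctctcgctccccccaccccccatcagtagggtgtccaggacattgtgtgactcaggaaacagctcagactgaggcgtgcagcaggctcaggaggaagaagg
A half-site of nuclear receptors, AGGTCA on either strand, is the core of the element that REV-ERBα binds after an A/T-rich stretch. It stood in 16.3% of all windows and, among the 8 genes, in 1 of 2 Dll1 windows (chr17:15375774-15376073, minus strand), 109 bases before the start on the plus strand of the transcript. The bases directly before this Dll1 half-site, cagggc, were not A/T-rich. Letters alone do not show binding, and binding was not measured.

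Between the genotypes, Notch1 and Notch3 fell and Notch4 and Hes1 rose in the libraries labelled Nr1d1-/-, while Notch2, Jag1, Jag2, Dll1, Rbpj and Hey1 did not pass the test (edgeR's quasi-likelihood test, called at an adjusted p under 0.05). Thus 2 of 10 genes were called higher and 2 of 10 lower, where 16.5% of the 14801 tested genes were called higher and 17.3% lower. Both Nr1d1-/- libraries lay above both Nr1d1+/+ libraries for 4 of 10 genes and below them for 3 of 10, against 34.4% and 36.2% of all tested genes. The median log2 fold was 0.31 over the 10 genes and -0.0065 over all tested genes. The count of calls among the 10 is therefore close to the background in both directions. Without Nr1d1+/+ replicate 2 both genes called higher missed the threshold (log2 fold 1.77 for Notch4 and 0.87 for Hes1). Without Nr1d1+/+ replicate 1 Notch1 and Notch4 missed it (log2 fold -0.715 and 1.215), while Rbpj and Hey1 passed (-0.91 and 1.16). Without Nr1d1-/- replicate 2 Hes1 alone was called higher, and without Nr1d1-/- replicate 1 Notch3 alone was called lower. In bulk RNA such as this, fewer cells of a type and less RNA per cell cannot be told apart.

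**Figure D1:**
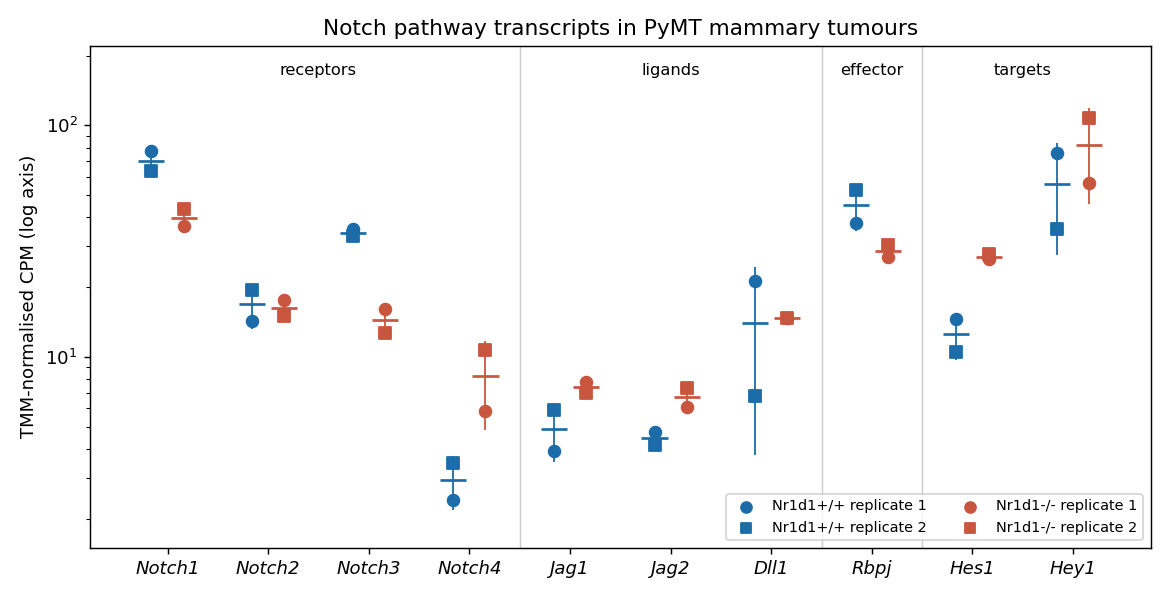
Level of each Notch gene in every library, as TMM-normalised CPM on a log axis, with blue for Nr1d1+/+ and red for Nr1d1-/-; bars mark the mean and vertical lines the SD of n = 2. Notch1 and Notch3 sat lower and Notch4 and Hes1 higher in both Nr1d1-/- libraries, and the Hey1 and Dll1 values of the genotypes overlapped.

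The first receptor, Notch1, is the gene on chromosome 2 from 26457903 to 26516663 (minus strand, GRCm38) and encodes the most widely studied of the 4 receptors. It was counted at 77.2 and 63.6 CPM in the Nr1d1+/+ tumours and at 36.6 and 43.3 CPM in the Nr1d1-/- tumours. Both Nr1d1-/- libraries lay below both Nr1d1+/+ libraries. Notch1 fell from 70.4 ± 9.59 to 39.9 ± 4.76 CPM (SD, n = 2 each), a 1.76-fold drop with a log2 fold of -0.82 (edgeR adjusted p = 0.0158, SE 0.20). The call was lost without Nr1d1+/+ replicate 1 (edgeR adjusted p = 0.0834) and without Nr1d1-/- replicate 1 (0.0575), where the log2 fold was -0.72 and -0.70.

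Notch3, on chromosome 17 from 32120820 to 32166852 (minus strand), encodes the receptor known from mural cells, which is also present in luminal progenitors of the gland. Its level was 35.5 and 33.3 CPM in the Nr1d1+/+ tumours and 16.1 and 12.6 CPM in the Nr1d1-/- tumours. The replicates of a genotype lay close together and far from those of the other. Notch3 fell from 34.4 ± 1.56 to 14.4 ± 2.45 CPM (SD, n = 2), a 2.40-fold drop with a log2 fold of -1.26 (edgeR adjusted p = 0.00547, SE 0.23). Of the 10 genes it was the one with the lowest p. The call held in all 14 alternatives that refit the data, with log2 folds from -1.64 to -1.11 and adjusted p-values up to 0.0207. Of 12 mural cell markers, 4 were called higher and 0 lower, against 16.5% higher and 17.3% lower of all tested genes. The genotypes overlapped for 6 of them and did not for 5 higher and 1 lower, against 34.4% and 36.2% of all tested genes. None of the 12 was at 0. They summed to 85.3 and 112 CPM in the Nr1d1+/+ tumours and to 178 and 256 CPM in the Nr1d1-/- tumours. Much of that came from Des (61.4 CPM in Nr1d1-/- replicate 1, the library with muscle transcripts) and Acta2. Acta2 was 23.6 and 21.1 CPM in Nr1d1+/+ and 49.2 and 135 CPM in Nr1d1-/- libraries, and was called higher. After the values were seen, these 2 genes were removed because they had the highest CPM of the list in an Nr1d1-/- library. That choice by itself lowers the Nr1d1-/- sums most. Without the 2 genes the sums were 60.4 and 88.5 CPM against 67.9 and 115 CPM and overlapped. Per 100 CPM of those 10 markers Notch3 stood at 58.8 and 37.6 CPM in Nr1d1+/+ and 23.7 and 11 CPM in Nr1d1-/- libraries. The part of mural cell content in the Notch3 result was not tested.

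Notch4, on chromosome 17 from 34564268 to 34588503 (plus strand), encodes the receptor known from endothelium and is also the mouse gene first met as a mammary tumour locus. It was the least counted of the receptors in every library, with 51 and 73 counts in the Nr1d1+/+ tumours and 80 and 173 counts in the Nr1d1-/- tumours. As levels these were 2.41 and 3.49 CPM against 5.86 and 10.7 CPM. Both Nr1d1-/- libraries lay above both Nr1d1+/+ libraries, and they differed from each other 1.83-fold. Notch4 rose from 2.95 ± 0.765 to 8.29 ± 3.44 CPM (SD, n = 2), a 2.83-fold rise with a log2 fold of 1.5 (edgeR adjusted p = 0.0270, SE 0.43). This call rested on single libraries: leaving out an Nr1d1+/+ library gave an edgeR adjusted p of 0.153 (replicate 1) or 0.0709 (replicate 2), and leaving out Nr1d1-/- replicate 2 gave 0.136 with a log2 fold of 0.97. It was also 0.0719 with library size as the only scaling, 0.0548 with the trends of the fold on GC content and transcript length removed and 0.0530 with no filter on low counts.

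Of 20 endothelial markers tested, 8 were called higher, 0 lower and 12 did not pass, against 16.5% higher and 17.3% lower of all tested genes. They summed to 82.1 and 96.6 CPM in the Nr1d1+/+ tumours and to 163 and 185 CPM in the Nr1d1-/- tumours. The defining marker Pecam1 was 13.9 and 16.6 CPM against 22.5 and 28.1 CPM, whereas Cdh5, which encodes VE-cadherin, was 11.9 and 13.3 CPM against 6.81 and 11.4 CPM and did not pass (edgeR adjusted p = 0.302). Kdr, the VEGF receptor gene, was 3.97 and 7.08 CPM against 1.90 and 3.04 CPM and did not pass either (edgeR adjusted p = 0.0922). Sox17 was at 0 in Nr1d1-/- replicate 1. Per 100 CPM of the endothelial markers, a ratio chosen after the values were seen, Notch4 stood at 2.94 and 3.62 CPM in Nr1d1+/+ and at 3.60 and 5.81 CPM in Nr1d1-/- libraries. The genotypes overlapped on this scale only through 3.62 against 3.60 CPM. The part of vessel content in the Notch4 result was not tested.

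**Figure D2:**
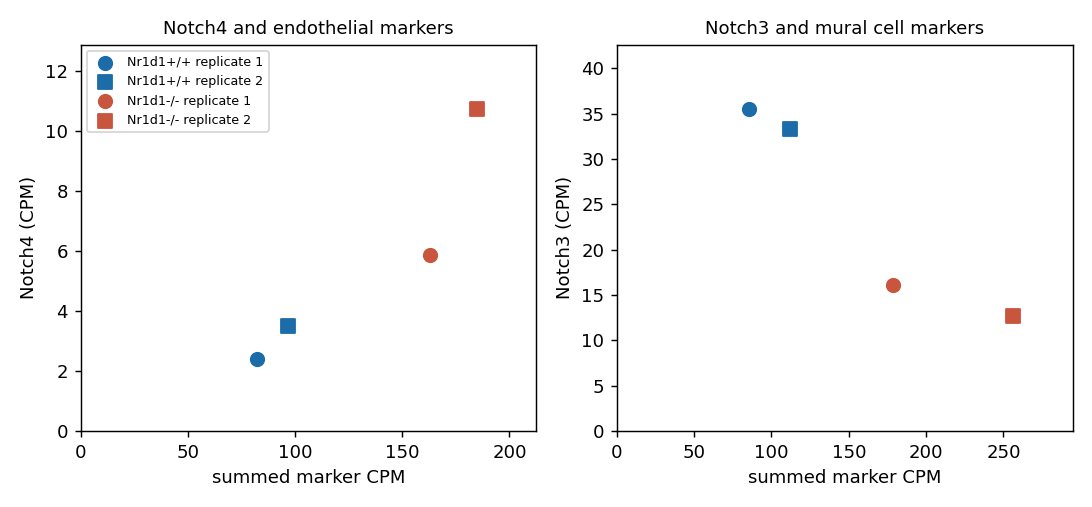
Left, Notch4 against the summed CPM of 20 endothelial markers; right, Notch3 against the summed CPM of 12 mural cell markers, with 1 point per library and both axes from 0. The Nr1d1-/- libraries lie to the right in both panels, with higher Notch4 (5.86 and 10.7 CPM) and lower Notch3 (16.1 and 12.6 CPM). The mural sums overlap between genotypes without Des and Acta2, which were removed for their high Nr1d1-/- levels.

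Notch2, on chromosome 3 from 98013527 to 98150361 (plus strand), was the receptor whose values overlapped. It was 14.2 and 19.4 CPM in the Nr1d1+/+ tumours and 17.6 and 15.1 CPM in the Nr1d1-/- tumours. The log2 fold was -0.05 (edgeR adjusted p = 0.911, SE 0.27), and its sign changed with the scaling and with the library left out, between -0.43 and 0.17.

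Levels of different genes were compared per kilobase of annotated exon. On this scale the summed receptor level was 11.4 and 10.8 CPM per kb in the Nr1d1+/+ tumours and 6.92 and 7.33 CPM per kb in the Nr1d1-/- tumours. In Nr1d1+/+ tumours the order was Notch1 (4.94 ± 0.674 CPM per kb, SD, n = 2), Notch3 (4.25 ± 0.193), Notch2 (1.56 ± 0.341) and Notch4 (0.366 ± 0.0949). Neighbours in this order did not overlap, although Notch1 and Notch3 differed by little more than the SD of Notch1. In Nr1d1-/- tumours the order was the same, but the levels drew together: Notch1 2.80 ± 0.334, Notch3 1.78 ± 0.303, Notch2 1.51 ± 0.165 and Notch4 1.03 ± 0.427 CPM per kb. There the values of Notch3 and Notch2 overlapped.

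As shares of the summed receptor level per kb, Notch3 made up 38.4% and 38.1% in Nr1d1+/+ and 28.8% and 21.3% in Nr1d1-/- libraries. Notch4 made up 2.62% and 4.01% in Nr1d1+/+ and 10.5% and 18.2% in Nr1d1-/- libraries. Notch2, with a level that hardly differed, made up 11.6% and 16.7% against 23.6% and 19.1%. The share of Notch1 overlapped between genotypes, at 47.4% and 41.3% against 37.1% and 41.5%, although its level fell. With 2 samples against 2, an exact permutation test cannot go below p = 0.33, so these shares are a description. The longest Notch1 transcript has 9488 bases, against 14232 bases of all annotated exons. Scaled by the longest transcript, Notch1 made up 56.9% and 50.6% against 45.7% and 49.6%. The order of the receptors by group mean was then the same in both genotypes. In Nr1d1-/- replicate 2, however, Notch4 made up 17.69% on this scale, above Notch3 at 17.15% and Notch2 at 15.59%.

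**Figure D3:**
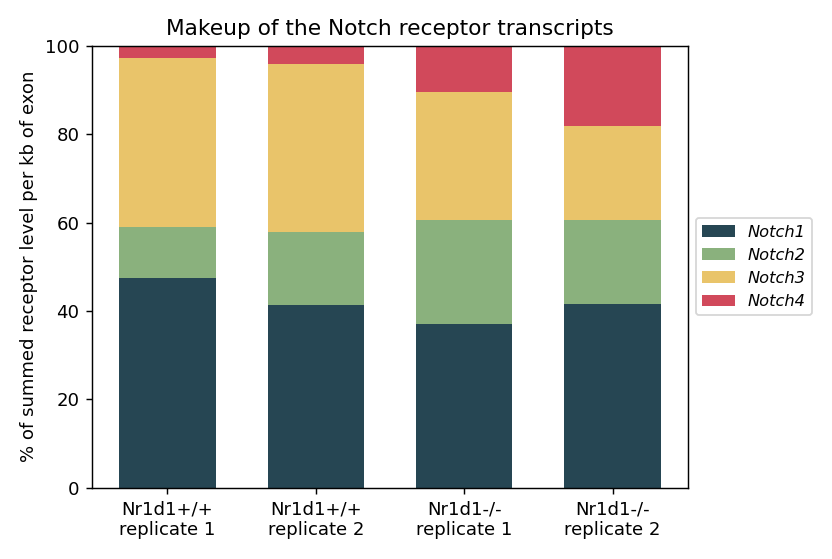
Share of each receptor in the summed Notch receptor level per kb of exon, in percent, with 1 bar per library. Notch4 takes 2.62% and 4.01% of the bar in the Nr1d1+/+ libraries and 10.5% and 18.2% in the Nr1d1-/- libraries, and Notch3 takes 38.4% and 38.1% against 28.8% and 21.3%.

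No ligand passed the test. Jag1 (chromosome 2, 137081456 to 137116644, minus strand) encodes Jagged1 and was 3.92 and 5.88 CPM in the Nr1d1+/+ tumours and 7.76 and 7.01 CPM in the Nr1d1-/- tumours. Jag2 (chromosome 12, 112907819 to 112929776, minus strand) encodes Jagged2 and was 4.73 and 4.16 CPM against 6.08 and 7.32 CPM. For both Jagged genes the genotypes did not overlap, with the Nr1d1-/- libraries on the upper side. The log2 folds were 0.59 (edgeR adjusted p = 0.232, SE 0.36) for Jag1 and 0.59 (edgeR adjusted p = 0.215, SE 0.35) for Jag2. Over 14 refits neither gene changed sign or passed, and with GC and length trends removed they stood apart, at 0.93 for Jag1 and 0.35 for Jag2. At 83 to 123 counts per library for Jag1 and 83 to 118 for Jag2, differences of this size were within the spread the test allows for.

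Dll1 (chromosome 17, 15367354 to 15376872, minus strand) encodes Delta-like 1, a ligand known from mammary stem cells. Its levels were 21.3 and 6.79 CPM in the Nr1d1+/+ tumours and 14.7 and 14.7 CPM in the Nr1d1-/- tumours. The Nr1d1+/+ libraries differed 3.14-fold from each other and lay on either side of both Nr1d1-/- libraries, which differed by a factor of 1.002. The log2 fold was 0.06 (edgeR adjusted p = 0.926, SE 0.46). It was 1.07 without Nr1d1+/+ replicate 1 and -0.56 without Nr1d1+/+ replicate 2, so no direction can be given. Per kb of exon Dll1 took the largest share of the 3 ligands in each library, from 78.9% in Nr1d1+/+ replicate 1 and 61.3% and 60.7% in the Nr1d1-/- libraries down to Nr1d1+/+ replicate 2, where Jag1 made up 31.4% and Jag2 18.6%.

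Rbpj (chromosome 5, 53466152 to 53657362, plus strand) encodes the protein that carries Notch to DNA and that represses the same genes when no Notch is bound. It was 37.9 and 52.4 CPM in the Nr1d1+/+ tumours and 27.0 and 30.4 CPM in the Nr1d1-/- tumours. The genotypes did not overlap, with the Nr1d1-/- libraries lower, and the log2 fold of -0.65 missed the threshold (edgeR adjusted p = 0.0553, SE 0.23). It passed without Nr1d1+/+ replicate 1 (-0.91, 0.0402), with library size as the only scaling (-1.04, 0.00947) and with the replicate number as a block (-0.64, 0.0396). Removing GC and length trends took it to -0.16 (edgeR adjusted p = 0.606), and at 43.7% GC its longest transcript was the most GC-poor of the 10 genes.

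Hes1 (chromosome 16, 30064384 to 30067796, plus strand) encodes a basic helix-loop-helix repressor and is the classical direct target of the pathway. Its level was 14.5 and 10.5 CPM in the Nr1d1+/+ tumours and 26.4 and 27.7 CPM in the Nr1d1-/- tumours. Both Nr1d1-/- libraries lay above both Nr1d1+/+ libraries and lay within a factor of 1.05 of each other. Hes1 rose from 12.5 ± 2.82 to 27.0 ± 0.950 CPM (SD, n = 2), a 2.16-fold rise with a log2 fold of 1.11 (edgeR adjusted p = 0.0119, SE 0.25). The call was lost without Nr1d1+/+ replicate 2 (log2 fold 0.87, edgeR adjusted p = 0.102), and with GC and length trends removed it held at 0.81 (0.0416).

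Hey1 (chromosome 3, 8663359 to 8667256, minus strand) encodes a related repressor. It was 75.8 and 35.7 CPM in the Nr1d1+/+ tumours and 56.3 and 107.6 CPM in the Nr1d1-/- tumours. Replicates differed 2.12-fold in Nr1d1+/+ and 1.91-fold in Nr1d1-/-, and the genotypes overlapped. The log2 fold was 0.56 (edgeR adjusted p = 0.284, SE 0.38). Leaving out Nr1d1-/- replicate 2 took it to -0.0038, and leaving out Nr1d1+/+ replicate 1 took it to 1.16, where it passed (edgeR adjusted p = 0.0475). Per kb of exon Hey1 and Hes1 had the highest levels of the 10 genes in both genotypes, at 17.1 ± 8.68 and 6.15 ± 1.38 CPM per kb in Nr1d1+/+ and 25.1 ± 11.1 and 13.3 ± 0.467 CPM per kb in Nr1d1-/- (SD, n = 2). By exon length Rbpj ranked below Notch1 and Notch3 in Nr1d1+/+ and below Dll1 and Notch1 in Nr1d1-/-, and by the longest transcript it ranked directly below Hes1 in both genotypes.

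**Figure D4:**
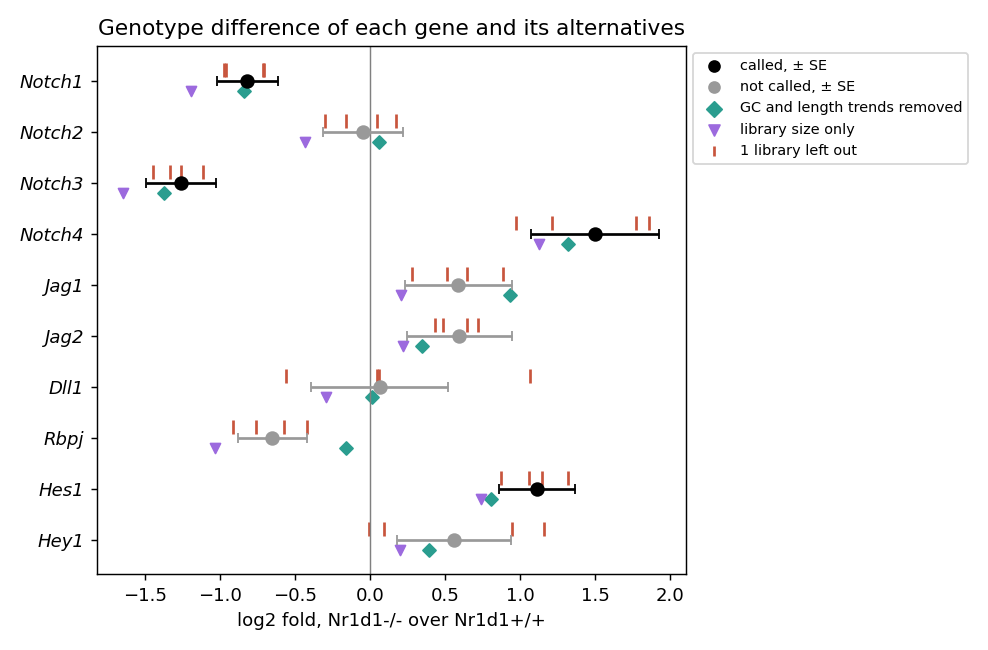
Log2 fold of each gene, Nr1d1-/- over Nr1d1+/+, with its SE, in black where called and grey where not; small marks give the value with GC and length trends removed, with library size only, and with each library left out. Notch3 stayed between -1.64 and -1.11, and Dll1 and Hey1 spread across 0.

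The rest of the pathway was described through a fixed list of 63 other genes, of which 55 passed the filter on low counts. Of these, 7 were called higher, 15 lower and 33 did not pass, with a median log2 fold of -0.21, against 16.5% higher and 17.3% lower of all tested genes. Scaling by library size alone left 3 higher (Neurl1b, Psenen and Ncor1) and 22 lower, a setting that moved the median log2 fold of all genes to -0.38. Leaving out 1 library gave from 3 (without Nr1d1+/+ replicate 2 or Nr1d1-/- replicate 1) or 4 (without Nr1d1+/+ replicate 1) to 6 higher and from 8 (without Nr1d1+/+ replicate 2) to 13 lower. The calls of 8 genes held in every such fit: Neurl1b, Psenen and Ncor1 higher, and Adam17, Ep300, Kat2b, Itch and Dtx1 lower. All but Psenen were also called with GC and length trends removed.

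Among further ligands and the enzymes that act on ligands and receptors outside the nucleus, Neurl1b had the largest change. It encodes a Neuralized ubiquitin ligase that promotes ligand endocytosis, and it was 8.18 and 4.74 CPM in the Nr1d1+/+ tumours and 36.6 and 19.3 CPM in the Nr1d1-/- tumours (log2 fold 2.11, edgeR adjusted p = 0.00517, SE 0.39). The ligase gene Mib2, the most abundant of its class per kb, had 0.10 and did not pass. Of the other ligands 2 of 5 were tested and neither passed, with Dll4, the endothelial ligand, at 3.55 and 2.87 CPM against 2.12 and 2.91 CPM. None of the 5 glycosylation genes passed, and Rfng, a fringe enzyme that adds sugars to Notch and the most abundant of them per kb, had a log2 fold of 0.07.

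Of 10 genes for the proteases that cut Notch 4 fell and 1 rose, against 17.3% lower and 16.5% higher of all tested genes. Adam17, which encodes a sheddase, fell from 36.8 and 43.0 CPM in the Nr1d1+/+ tumours to 16.3 and 19.6 CPM in the Nr1d1-/- tumours (log2 fold -1.15, edgeR adjusted p = 0.00657, SE 0.22). Adam10, which encodes the main protease of ligand-activated Notch, had -0.81 (adjusted p = 0.0214), and 0.169 without Nr1d1+/+ replicate 2, 0.0646 without Nr1d1-/- replicate 1 and 0.255 with trends removed. The gamma-secretase genes split: Ncstn (nicastrin) fell with -0.89 (adjusted p = 0.00916, and 0.0560 without Nr1d1+/+ replicate 2), and Psenen, which encodes the small subunit PEN-2, rose from 88.9 and 85.4 CPM to 232 and 160.2 CPM (log2 fold 1.17, edgeR adjusted p = 0.00499, SE 0.21). With trends removed Psenen had 0.55 (edgeR adjusted p = 0.0915).

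Of 8 nuclear coactivators tested 4 fell and 1 rose, against 17.3% lower and 16.5% higher of all tested genes. Kat2b, an acetyltransferase gene, fell from 35.9 and 37.0 CPM in the Nr1d1+/+ tumours to 8.20 and 7.94 CPM in the Nr1d1-/- tumours (log2 fold -2.18, edgeR adjusted p = 0.00162, SE 0.23). Ep300, which encodes p300, fell from 49.9 and 62.5 CPM to 15.97 and 15.7 CPM (log2 fold -1.83, edgeR adjusted p = 0.00207, SE 0.22). The Mastermind genes went both ways: Maml1 had -1.34 and Maml3 -1.33, while Maml2, named after its value was seen, rose with 1.16 (edgeR adjusted p = 0.0106, 0.0165 and 0.0172). Each was lost in at least 1 fit without a library: Maml1 without Nr1d1+/+ replicate 1 (0.0506), Maml3 without either Nr1d1+/+ replicate (0.0514 and 0.0961), and Maml2 without Nr1d1+/+ replicate 2 (0.0915) or Nr1d1-/- replicate 1 (0.0869). Kat2a, the most abundant per kb, had -0.60 and did not pass (0.0584).

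Nuclear corepressors had 2 higher and 4 lower of 13, where 16.5% of all tested genes were called higher and 17.3% lower. Ncor1, a corepressor that REV-ERBα also uses, rose from 248 and 197 CPM in the Nr1d1+/+ tumours to 635 and 381 CPM in the Nr1d1-/- tumours (log2 fold 1.19, edgeR adjusted p = 0.00946, SE 0.26). Spen, which encodes a corepressor bound to RBPJ, fell with -1.07 (0.0193), Tle3 with -0.71 (0.0156) and Kdm5a, a histone demethylase gene, with -0.86 (0.0217), all as log2 fold and edgeR adjusted p. None of these 3 passed without Nr1d1+/+ replicate 2 (0.169, 0.0940 and 0.175), Spen did not without Nr1d1-/- replicate 2 (0.0518), and Kdm5a did not without Nr1d1-/- replicate 1 (0.0592). Outside the naming rule, Ctbp2 rose with 0.67 (0.0284) and Tle4, a Groucho-type gene, fell with -1.24 (0.0377). Both missed the threshold without either Nr1d1+/+ library or without Nr1d1-/- replicate 1 (0.109 to 0.152 for Ctbp2, 0.106 to 0.124 for Tle4), and neither they nor Kdm5a passed with trends removed (0.0508, 0.121 and 0.206). Hdac1, the most abundant of the class per kb, had -0.44 and did not pass (0.0748).

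Genes of inhibition and turnover had 3 lower and 1 higher of 10, where 17.3% of all tested genes were called lower and 16.5% higher. Dtx1, a Deltex gene that is itself a known Notch target in lymphocytes, fell from 7.19 and 9.57 CPM in the Nr1d1+/+ tumours to 1.47 and 1.67 CPM in the Nr1d1-/- tumours (log2 fold -2.40, edgeR adjusted p = 0.00450, SE 0.42). Itch, which encodes a ubiquitin ligase acting on Notch, fell from 35.6 and 46.2 CPM to 14.6 and 11.6 CPM (log2 fold -1.65, edgeR adjusted p = 0.00298, SE 0.25). Numb, the classical inhibitor, fell with -1.20 (0.0210; 0.0888 without Nr1d1+/+ replicate 1 and 0.0581 without Nr1d1-/- replicate 1). Fbxw7, whose product marks the Notch intracellular part for destruction, rose with 0.64 (0.0255), and missed the threshold without either Nr1d1+/+ library (0.123 and 0.148) or without Nr1d1-/- replicate 1 (0.0736).

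Of the other HES and HEY genes 4 of 8 were tested and Hes6 alone was called, from 19.1 and 15.9 CPM in the Nr1d1+/+ tumours to 29.4 and 28.3 CPM in the Nr1d1-/- tumours (log2 fold 0.72, edgeR adjusted p = 0.0384, SE 0.23). HES6 is known to oppose HES1. That call held in none of the 4 fits without a library, with edgeR adjusted p-values of 0.101 and 0.254 for leaving out an Nr1d1+/+ library and 0.0909 and 0.0713 for leaving out an Nr1d1-/- library, and removing GC and length trends took its log2 fold to -0.04.

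**Figure D5:**
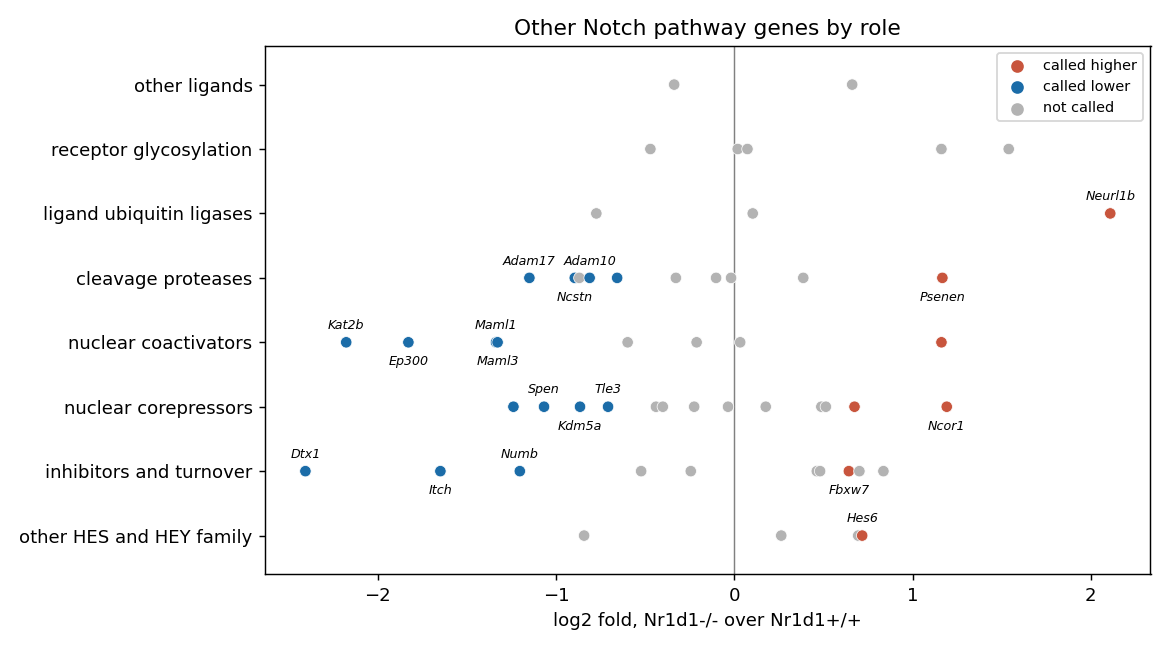
Log2 fold, Nr1d1-/- over Nr1d1+/+, of the 55 tested genes of the fixed pathway list by role, with the called genes that the naming rule takes named. Proteases and coactivators each have 4 points called lower and 1 called higher, against 17.3% lower and 16.5% higher of all tested genes. Neurl1b and Dtx1 lie at the ends, at 2.11 and -2.40.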

How the data were processed

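RNA sequencing counts were analysed for 4 tumour libraries. Per the labels' protocols, Trizol RNA went into stranded Clontech SMARTer libraries. The submitters' processing notes name TopHat and mm10. The authors deposited whole-number counts for each gene symbol, with no normalization. The counting program, annotation and strand setting were not given in the sources used here. Antisense genes share exon bases with Dll1 (20.6% of its exon bases), Notch1 (7.50% and 2.91%, with 2 genes) and Notch3 (6.03%). Nr1d1 shares 8.55% of its exon bases with Thra on the opposite strand. Without a known strand setting the reads of such overlapping genes cannot be told apart.

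From the counts, TMM factors (1.11, 1.18, 0.858 and 0.895 for Nr1d1+/+ replicates 1 and 2 and Nr1d1-/- replicates 1 and 2), CPM and edgeR 4.0.16's quasi-likelihood F test (R 4.3.3, legacy=FALSE, a 2-group design that leaves 2 residual degrees of freedom) were computed over 14801 genes kept by filterByExpr (minimum count 10), with Benjamini-Hochberg adjustment over all of them. The SE of a log2 fold was computed back from the test, as the absolute log2 fold divided by the square root of F. It thus adds nothing to the p-value. Of 23282 rows, 22907 joined GENCODE M21 (GRCm38) for positions, exon lengths and GC content. Replicates differed by far more than sampling noise (chi-square per degree of freedom 42.6 and 54.0). The fits were tested on simulated data. The labels do not say what replicate numbers share, so samples were not paired. The 10 genes, the pathway list and the marker lists were chosen with earlier results of these data known. All 10 genes are named; of the pathway list, per class, up to 4 called genes with the lowest p and the most abundant gene per kb. One called pathway gene is counted but not reported here. Alternatives were other scalings, no filter, DESeq2 1.42.0, limma-voom 3.58.1, the legacy estimate, splines (5 degrees of freedom) on GC content and length as offsets, a replicate block, an adjusted p of 0.1 and each library left out. Figures used matplotlib 3.10.9.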

Additional observations from a re-analysis of the deposited data

How the results depend on the processing

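With library size as the only scaling, 1 of the 10 Notch genes was called higher, 3 other pathway genes were called higher, 1281 of all genes were higher and 4415 lower (2446 and 2565 as reported; 22.5% of calls higher in place of 48.8%), and Dll1 had a log2 fold of -0.30. With GC and length trends removed, 1 Notch gene (Hes1) was called higher and 1659 of all genes lower. With no filter on low counts 1 Notch gene was called higher, and at an adjusted p under 0.1 there were 12 pathway genes higher. Notch2 had a log2 fold of 0.010 with upper-quartile factors, 0.057 with trends removed and 0.067 with the replicate block and trends removed. Leaving out each library in turn gave 0 to 2 Notch genes higher and 1 to 2 lower, 3 to 6 pathway genes higher and 8 to 13 lower, and 1036 to 2358 of all genes higher and 1170 to 2401 lower; the lowest of each came without Nr1d1+/+ replicate 2, except for Notch genes lower (without Nr1d1-/- replicate 1), and the 3 pathway genes higher came also without Nr1d1-/- replicate 1. Log2 folds then ran from -0.30 to 0.17 for Notch2, -0.56 to 1.07 for Dll1 and -0.0038 to 1.16 for Hey1. A fit without a library leaves 1 sample in a group, which is assumed to vary like the other group. The cause of these changes was not tested. With the replicate number as a block, 2 Notch genes were higher and 3 lower, with Rbpj added (log2 fold -0.64), and 2622 of all genes were higher and 2704 lower; deviations of same-numbered samples correlated at 0.0256 across genes. Notch4 (51 to 173 counts per library), Jag1 (83 to 123) and Jag2 (83 to 118) had the fewest counts of the 10 genes.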
